A study of Mus musculus with 5 samples.

Results

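The genes described here are 36 of the unfolded protein response and the integrated stress response, chosen by symbol from a list of endoplasmic reticulum (ER) chaperones, ER-associated degradation factors, stress sensors, transcription factors and ATF4 targets. All 36 were among the 18783 genes of the authors' deposited table. They comprise 3 stress sensors, 5 transcription factors, 11 ER chaperones and co-chaperones, 4 protein disulfide isomerases, 4 genes of ER-associated degradation, 4 stress-induced targets of ATF4 and CHOP and 5 enzymes of serine, glycine and asparagine synthesis.

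The unfolded protein response adjusts the folding capacity of the ER to its load. The sensors IRE1 (Ern1), PERK (Eif2ak3) and ATF6 lie in the ER membrane; IRE1 splices the Xbp1 mRNA, ATF6 is released by cleavage, and PERK phosphorylates eIF2α, which lowers general translation and favours translation of Atf4. The integrated stress response is the part shared by all eIF2α kinases, in which ATF4 induces genes of amino acid synthesis and, with CHOP (Ddit3), genes that end or escalate the response. Much of this signalling acts through splicing, cleavage and translation, which a gene-level mRNA mean does not measure. In brain, astrocytes are secretory cells and amyloid-β is one of the agents studied as an ER stressor.

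Primary astrocyte cultures from newborn C57BL/6 mice were given 1 µM amyloid-β with 50 µM DFMO (Aβ+DFMO, 1 library), 1 µM amyloid-β alone (Aβ, 2 libraries) or nothing (Control, 2 libraries), treatment running for 5 days from day 7 in vitro to harvest on day 12. DFMO (difluoromethylornithine) irreversibly inhibits ornithine decarboxylase, so the study asks what amyloid-β changes in these cells and what blocking polyamine synthesis changes in amyloid-β-treated cells. Pups at P0 to P1 gave the cultures, which carry no transgene in the labels, and nothing in the labels tells whether the libraries of 1 group are from different cultures. The p-values thus measure only the spread between these libraries, which may be technical, and no DFMO-only group was among the 5 libraries.

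The Aβ+DFMO library held 4825677 reads, of which 84.4% lay fully within exons. Read totals of the other libraries were not used, so its depth is not compared with theirs here. With 1 library, anything particular to it, depth among them, cannot be told apart from DFMO. A gene's value is the normalized mean of its group in the authors' deposited table, on an arbitrary scale, so no spread over libraries can be printed for a single gene. Aβ+DFMO against Aβ and Aβ against Control share the Aβ libraries. In place of a spread over libraries, some log2 ratios are given with an implied standard error (SE) or an interval from it. The SE is the size of the ratio divided by the normal deviate of its two-sided p in the authors' deposited DESeq2 table. The plot of log2 ratios shows the interval of every member. In the Aβ+DFMO column 1 read was worth about 7.45 normalized units, which gave the members a median of 285 estimated reads, with a range of 7 for Trib3 to 4425 for Hsp90b1.

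Some promoters of these genes hold known elements of the response. The ER stress response element (ERSE), searched as CCAAT, any 9 letters and CCACG, is bound by NF-Y at its first letters and by ATF6 or XBP1 at its last. In the 250 bases before the annotated start, 8 of the 33 members with a window (24.2%) held it on either strand, against 37 of all RefSeq windows (0.113%). For each element members are counted as genes and the background as windows, those of the members included. The members were chosen as genes of this response, so the larger share is a description and not a test. The matches are shown here because they mark which members share this element; each is given 5′ to 3′ in the direction of the element, with its fixed letters in capitals, from RefSeq in GRCm38.p6.
Hspa5, chr2:34772025-34772043, plus strand: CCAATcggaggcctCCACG
Hsp90b1 distal, chr10:86705638-86705656, minus strand: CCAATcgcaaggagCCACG
Hsp90b1 proximal, chr10:86705533-86705551, plus strand: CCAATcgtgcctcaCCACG
Calr, chr8:84847075-84847093, plus strand: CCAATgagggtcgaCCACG
Canx, chr11:50325800-50325818, minus strand: CCAATcaccacgctCCACG
Dnajc3, chr14:118937827-118937845, plus strand: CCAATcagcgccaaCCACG
Creld2, chr15:88819520-88819538, minus strand: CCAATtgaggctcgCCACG
Pdia6, chr12:17266491-17266509, plus strand: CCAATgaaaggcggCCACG
Syvn1, chr19:6046532-6046550, plus strand: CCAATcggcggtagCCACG
The spacer of 9 letters differed between all of them, while the flanking letters are fixed by the search. Herpud1 alone among the 33 members with a window held the shorter form (ERSE-II), searched as ATTGG, any 1 letter and CCACG. That form was found in 10 windows overall (0.0304%). Hyou1, Manf and Atf6 had no window, so they were not searched for any element. The ATF4 element TGATGNAA lay in the windows of Asns, Atf3, Chac1 and Herpud1, 4 of 33 members (12.1%), against 3.45% of all windows. No member window held TGACGTGG, the letters searched for the XBP1 element, which lay in 0.563% of all windows. A match is only a run of letters, and its absence says nothing about binding.

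Whole upstream windows are shown for the chaperone gene with the largest level per length in Aβ+DFMO, for the gene that held both kinds of element, and for the member with the largest fall, each 5′ to 3′ on the strand of the gene with the letters of any match in capitals.
Hsp90b1, chr10:86705445-86705694, minus strand: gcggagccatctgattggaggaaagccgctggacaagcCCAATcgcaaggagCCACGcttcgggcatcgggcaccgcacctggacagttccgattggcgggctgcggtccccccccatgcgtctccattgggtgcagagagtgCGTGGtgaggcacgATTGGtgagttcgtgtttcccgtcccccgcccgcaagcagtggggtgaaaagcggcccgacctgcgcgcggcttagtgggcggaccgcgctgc
Herpud1, chr8:94386179-94386428, plus strand: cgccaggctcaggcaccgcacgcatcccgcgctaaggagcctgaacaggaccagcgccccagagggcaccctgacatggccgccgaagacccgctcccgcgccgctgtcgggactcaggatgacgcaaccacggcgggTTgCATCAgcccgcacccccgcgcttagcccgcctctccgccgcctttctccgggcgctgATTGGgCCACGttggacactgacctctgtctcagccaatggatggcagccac
Sdf2l1, chr16:17132384-17132633, minus strand: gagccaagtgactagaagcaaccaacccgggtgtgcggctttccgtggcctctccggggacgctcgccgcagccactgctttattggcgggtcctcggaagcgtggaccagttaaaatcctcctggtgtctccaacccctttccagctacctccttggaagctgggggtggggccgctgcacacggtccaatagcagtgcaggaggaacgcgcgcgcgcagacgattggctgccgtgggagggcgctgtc
The ERSE pair of Hsp90b1 faces opposite ways, and the Sdf2l1 window held no exact match to any of the 4 searches.

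Per kilobase of the principal transcript, chaperones and a disulfide isomerase of the ER were the most abundant members in these cultures and Trib3 and Chac1 the least. Hsp90b1 (GRP94, the ER member of the HSP90 family) stood at 11674 normalized units per kb in Aβ+DFMO, 8645 in Aβ and 8321 in Control. Calr (calreticulin, a lectin chaperone that also buffers calcium) stood at 8155 per kb in Aβ+DFMO, 8974 in Aβ and 8587 in Control. These led the members in all 3 groups, ahead of the disulfide isomerase Pdia3, the membrane lectin chaperone Canx (calnexin) and Hspa5 (BiP, the HSP70 of the ER). At the other end lay Trib3, a pseudokinase induced by ATF4 and CHOP, at 25.7 per kb in Aβ+DFMO, 25.6 in Aβ and 18.7 in Control. Chac1, a glutathione-degrading enzyme induced by ATF4, stood at 50.1 per kb in Aβ+DFMO, 54.6 in Aβ and 54.1 in Control. Ern1 was the least abundant sensor, at 103 per kb in Aβ+DFMO, 97.8 in Aβ and 94.1 in Control.

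**Figure D1:**
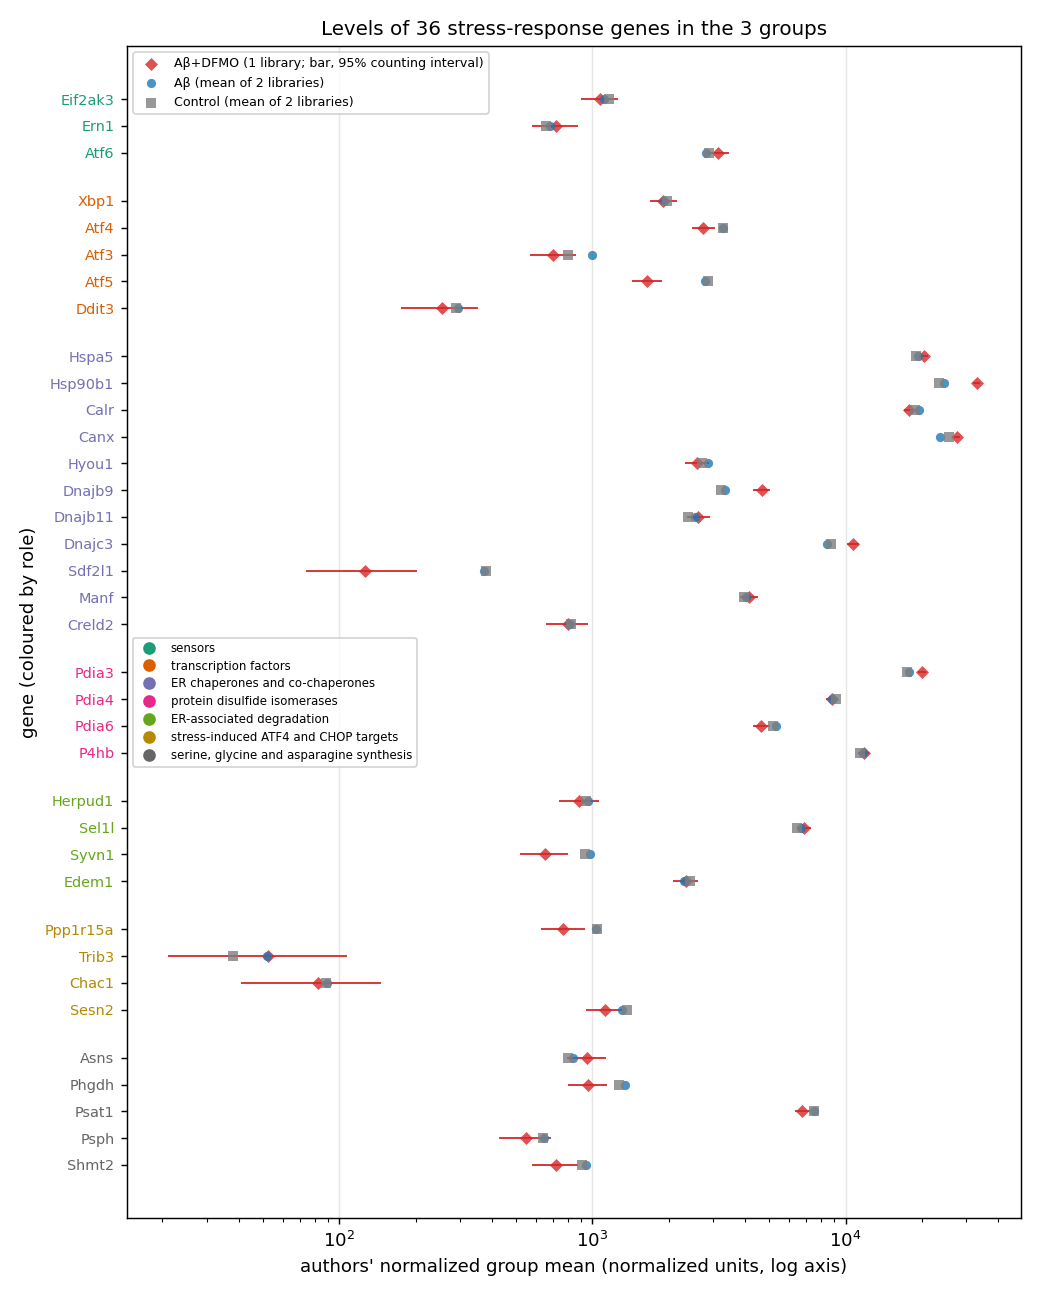
Authors' normalized group mean of each of the 36 genes (log axis) in Aβ+DFMO, Aβ and Control, with genes coloured by role; the bar is the 95% counting interval of the single Aβ+DFMO library and covers counting error only. Aβ and Control points lie almost on top of each other for most genes, while Sdf2l1 and Atf5 of Aβ+DFMO lie to their left and Hsp90b1, Dnajb9 and Dnajc3 to their right.

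The first comparison asked what amyloid-β changes. No member passed the threshold of 0.05 on the adjusted p for Aβ against Control in the authors' deposited DESeq2 table, where 0.287% of all genes were called (0.325% at 0.1 and 0.218% at 0.01, again with no member), and 1 member, against 1.72% of all genes, had an unadjusted p under 0.05. The median log2 ratio over the members was 0.03, beside 0.00 over all genes, and 33 of 36 ratios were smaller than 0.1 in size in the authors' deposited table. Implied 95% intervals lay within a log2 ratio of 0.5 on either side of 0 for 33 members and within 0.25 for 16. These intervals cover only the spread between these libraries, which may be technical, so they do not bound a change across cultures. A p that misses the threshold does not show that a gene stayed the same.

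Chaperones and sensors lay close to their Control means. Hspa5 had an authors' mean of 19327 in Aβ and 18973 in Control, a log2 ratio of 0.03 with an implied 95% interval of −0.12 to 0.17 in the authors' deposited table. Hsp90b1 had 24422 in Aβ and 23506 in Control, a log2 ratio of 0.06 in the authors' deposited table. Canx had the lowest ratio of all 36, at 23584 in Aβ and 25744 in Control (log2 ratio −0.13, unadjusted p = 0.0674, in the authors' deposited table). The 3 sensors had log2 ratios of −0.06 to 0.06, and the 11 chaperones and co-chaperones had ratios of −0.13 to 0.09, with 7 above 0 and 4 below. Among the disulfide isomerases the range was −0.05 to 0.04, and among the degradation genes −0.08 to 0.06.

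Atf3 and Trib3 stood apart by value only. Atf3, a stress-induced transcription factor, had an authors' mean of 997 in Aβ and 801 in Control, a log2 ratio of 0.32 with an implied SE of 0.142 and an unadjusted p of 0.0261 in the authors' deposited table. It was the single member whose implied interval left out 0. Trib3 had 51.8 in Aβ and 38 in Control, and its log2 ratio of 0.45 in the authors' deposited table had an implied interval of −0.50 to 1.40. Atf4, which is controlled mainly in translation, had 3294 in Aβ and 3291 in Control. Ddit3 (CHOP, the factor tied to cell death under lasting stress) had 295 in Aβ and 288 in Control. The synthesis enzymes had ratios of −0.00 to 0.08, led by Phgdh, the first enzyme of serine synthesis.

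**Figure D2:**
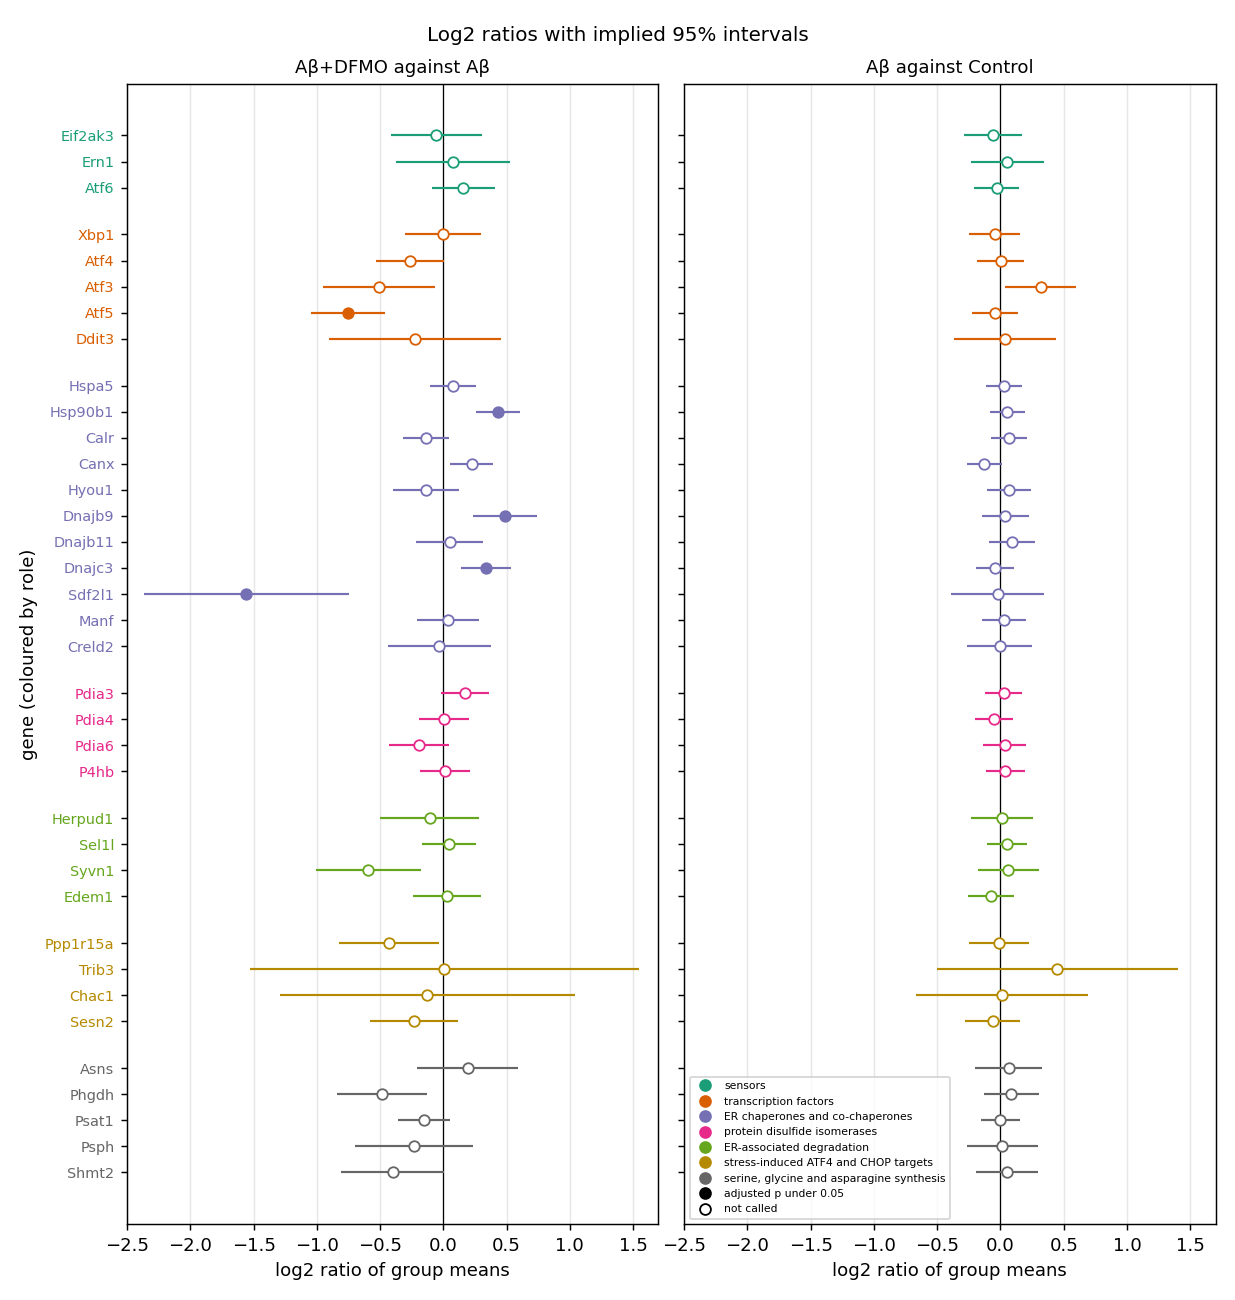
Log2 ratio of the authors' group means for each of the 36 genes, Aβ+DFMO against Aβ on the left and Aβ against Control on the right; bars are implied 95% intervals, filled points passed an adjusted p under 0.05 and open points did not. Of the 36 genes 5 are filled on the left and none on the right, where Atf3 is the only one whose bar leaves out 0.

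The second comparison asked what DFMO changes in amyloid-β-treated cultures. In Aβ+DFMO against Aβ, 3 of the 36 genes rose and 2 fell by the same threshold in the authors' deposited DESeq2 table. The 5 are 13.9% of the members, beside 9.18% of all genes (4% higher and 5.18% lower). Among the 11780 genes whose Aβ mean reached 200, with or without a GC value, 724 rose and 962 fell. Together these are a larger share than over all genes, and close to the share of the members. All members but Trib3 and Chac1 reached that mean, so the share of all genes is not a like background. The median log2 ratio of the members was −0.04, beside 0.01 over all genes, with 16 ratios above 0 and 20 below. At an adjusted p under 0.1 there were 8 members (22.2%), beside 12.8% of all genes, and under 0.01 there were 4 (11.1%), beside 4.72%. The share among those 11780 genes was not computed at these thresholds. Unadjusted p-values under 0.05 belonged to 10 members (27.8%), beside 20.9% of all genes and 3664 of those 11780 genes. Each call rests on 1 library and on the authors' model letting it vary like the others. None of the 5 passed once the trend of the ratio with transcript GC content was taken out, as described with the plot of ratio by GC.

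The 3 genes that rose are all chaperones or co-chaperones. Hsp90b1 had an authors' mean of 32980 in Aβ+DFMO, 24422 in Aβ and 23506 in Control; the log2 ratio of Aβ+DFMO against Aβ was 0.43 with an implied SE of 0.0875 and an adjusted p of 7.01e-05 in the authors' deposited table. Correction for GC gave 0.22, adjusted p = 0.283. Dnajb9 (ERdj4, a J-domain co-chaperone of BiP that also restrains IRE1) had 4665 in Aβ+DFMO, 3325 in Aβ and 3235 in Control, a log2 ratio of 0.49 with an implied SE of 0.129 and an adjusted p of 0.00453 in the authors' deposited table. Correction for GC gave 0.17, adjusted p = 0.836. Dnajc3 (p58IPK, a co-chaperone of BiP and inhibitor of PERK) had 10724 in Aβ+DFMO, 8488 in Aβ and 8755 in Control, a log2 ratio of 0.34 with an implied SE of 0.0999 and an adjusted p of 0.0135 in the authors' deposited table. Correction for GC gave 0.11, adjusted p = 0.909. For these 3 genes the Aβ+DFMO value was above the means of both other groups and both means lay below its counting interval. Of all 36 members, 18 had an Aβ mean outside that interval and 18 a Control mean outside it. The interval leaves out the error of those means. The same share over all genes was not computed, so these counts are not a result about the members.

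Sdf2l1, a partner of BiP and its J-domain co-chaperones, had the largest fall. Its value was 127 in Aβ+DFMO, 373 in Aβ and 378 in Control, a log2 ratio of −1.56 with an implied SE of 0.414 and an adjusted p of 0.00493 in the authors' deposited table. That value stood on an estimated 17.0 reads, whose 95% counting interval of 73.8 to 203 normalized units lay below the means of both other groups. After GC correction its log2 ratio was −1.18 (adjusted p = 0.158), still the lowest of the members.

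The other chaperones were not called. Hspa5 had 20375 in Aβ+DFMO, 19327 in Aβ and 18973 in Control, a log2 ratio of 0.08 with an implied interval of −0.11 to 0.26 in the authors' deposited table. Canx had 27552 in Aβ+DFMO, 23584 in Aβ and 25744 in Control, a log2 ratio of 0.22 with an adjusted p of 0.0880 in the authors' deposited table. Calr had 17811 in Aβ+DFMO, 19600 in Aβ and 18753 in Control, a log2 ratio of −0.14 in the authors' deposited table. None of these 3 ratios passed, and with the GC trend taken out they became −0.08 for Hspa5, −0.04 for Canx and −0.11 for Calr, all below 0. Hyou1 (an HSP110 family exchange factor for BiP), Dnajb11 (ERdj3), Manf (a secreted ER-stress-induced factor) and Creld2 (induced with it) had log2 ratios of −0.14, 0.05, 0.04 and −0.03 in the authors' deposited table. Of the 4 disulfide isomerases, which form and reshuffle disulfide bonds, none was called; Pdia3 had 0.17, P4hb 0.01, Pdia4 0.01 and Pdia6 −0.19 in the authors' deposited table.

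Among the transcription factors Atf5 fell and the other 4 were not called, although all 5 ratios lay below 0. With the GC trend taken out Xbp1 (0.16) and Ddit3 (0.08) lay above 0, and the median of the 5 became −0.04, against −0.26 as deposited. Atf5, an ATF4-related factor with a mitochondrial stress role, had 1647 in Aβ+DFMO, 2778 in Aβ and 2864 in Control, a log2 ratio of −0.75 with an implied SE of 0.148 and an adjusted p of 3.38e-05 in the authors' deposited table. Its transcript had the highest GC content of the members, 61.7%, and with the GC trend taken out its ratio was −0.15 (adjusted p = 0.932). Atf3 had 701 in Aβ+DFMO, 997 in Aβ and 801 in Control, a log2 ratio of −0.51 with an adjusted p of 0.150 in the authors' deposited table. Its Aβ mean was the highest of the 3, and it passed in neither comparison. Atf4 had 2742 in Aβ+DFMO, 3294 in Aβ and 3291 in Control (log2 ratio −0.26, adjusted p = 0.244, in the authors' deposited table). Ddit3 and Xbp1 had log2 ratios of −0.22 and −0.00 in the authors' deposited table. The sensors Atf6, Ern1 and Eif2ak3 had 0.16, 0.07 and −0.06 in the authors' deposited table, none called.

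ER-associated degradation, which extracts misfolded proteins from the ER for the proteasome, had no called member. Syvn1 (HRD1, its central ubiquitin ligase) had 648 in Aβ+DFMO, 978 in Aβ and 936 in Control, a log2 ratio of −0.59 with an adjusted p of 0.0556 in the authors' deposited table, which became −0.18 with the GC trend taken out. Sel1l, the HRD1 adaptor, had 6856 in Aβ+DFMO, 6654 in Aβ and 6404 in Control, a log2 ratio of 0.04 in the authors' deposited table. Herpud1, a scaffold of the same complex, and Edem1, which marks misfolded glycoproteins, had −0.11 and 0.03 in the authors' deposited table. Neither the ligase nor its adaptor passed, and with the GC trend taken out the ratio of Sel1l became −0.03, on the same side of 0 as that of Syvn1.

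None of the 4 stress-induced ATF4 and CHOP targets among the members was called. Ppp1r15a (GADD34, which directs dephosphorylation of eIF2α) had 768 in Aβ+DFMO, 1033 in Aβ and 1044 in Control, a log2 ratio of −0.43 with an adjusted p of 0.186 in the authors' deposited table. Trib3 had 52.2 in Aβ+DFMO, 51.8 in Aβ and 38 in Control, but with an estimated 7 reads its counting interval ran over 21.0 to 107 units, so a difference from the Aβ mean inside that interval was not detectable at this depth. Chac1, with an estimated 11 reads, and Sesn2 (sestrin 2, a stress-induced regulator of mTORC1) had log2 ratios of −0.13 and −0.23 in the authors' deposited table.

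Of the synthesis enzymes, 4 of 5 had ratios below 0 without passing. With the GC trend taken out Shmt2 became 0.010 and the median of the 5 became −0.04, against −0.23 as deposited. Phgdh had 963 in Aβ+DFMO, 1347 in Aβ and 1270 in Control, a log2 ratio of −0.48 with an adjusted p of 0.0739 in the authors' deposited table. Psat1 and Psph, the next enzymes of serine synthesis, had −0.15 and −0.23, and Shmt2, the mitochondrial enzyme that makes glycine from serine, had −0.40 in the authors' deposited table. Asns (asparagine synthetase) had 954 in Aβ+DFMO, 835 in Aβ and 798 in Control, a log2 ratio of 0.19 in the authors' deposited table.

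Shared sequence limits the counting of several members. Phgdh has 8 near-identical processed copies in GENCODE M21, which match it at 95.3% to 98.7% over part of its transcript. Psph shares 452 exonic bases with Cct6a on the opposite strand, Hsp90b1 shares 415 with 1810014B01Rik and Eif2ak3 485 with Gm43292. How reads of such copies, or of opposite strands, were assigned was not stated in the labels or headers used here, so the values of these genes are uncertain to that extent. Phgdh, Psph and Hsp90b1 were also the 3 members whose estimated reads in Aβ+DFMO were not whole within 0.05, where the other 33 were.

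The log2 ratio of Aβ+DFMO against Aβ followed the GC content of the transcript among the members as it did among all genes. Across the 36 members, which share 1 library, the rank correlation (Spearman's rho) came to −0.79 and the linear one (Pearson's r) to −0.71, given as a description. Over the 11660 genes with a GC value whose Aβ mean reached 200 (genes are not independent replicates) rho was −0.71 and r −0.68. The 18 members of lowest GC (40.6% to 51.2%) had a median log2 ratio of 0.06 with 14 above 0, and the 18 of highest GC (52.2% to 61.7%) had a median of −0.23 with 2 above 0. In Aβ against Control the same measure over the members gave a rho of 0.12 and an r of 0.23.

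**Figure D3:**
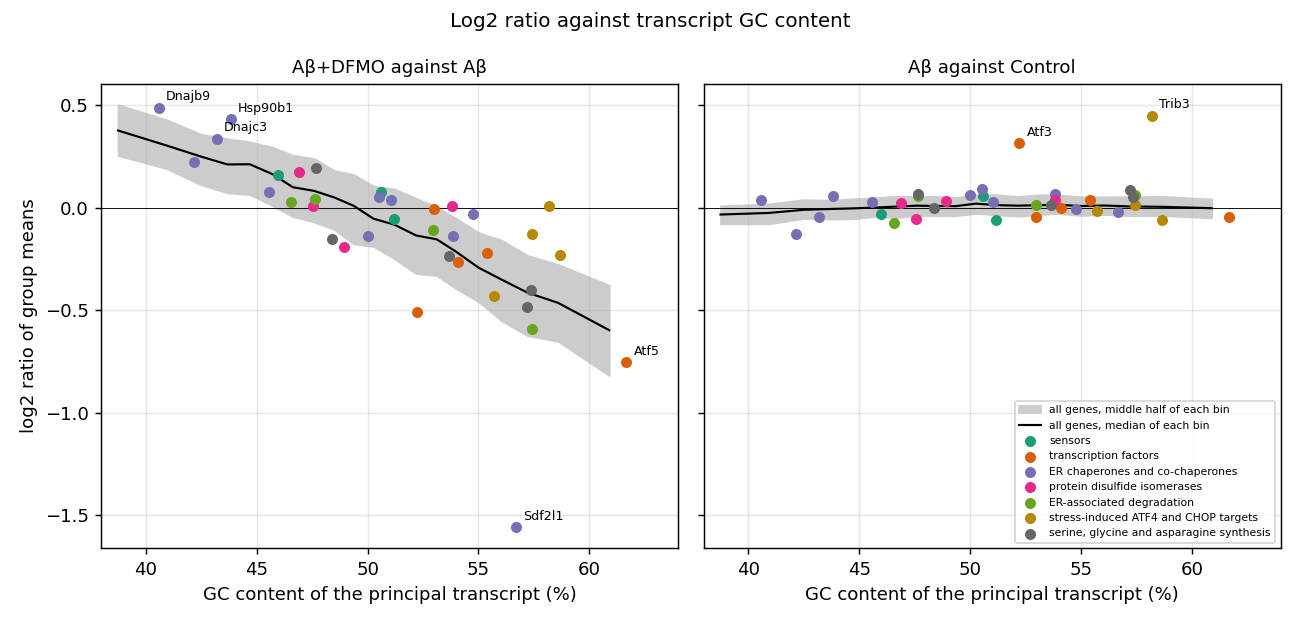
Log2 ratio of group means against GC content of the principal transcript, Aβ+DFMO against Aβ on the left and Aβ against Control on the right; points are the 36 genes coloured by role, the line is the median and the grey band the interquartile range of all genes whose Aβ mean reached 200, in 20 bins of GC. On the left most members lie in or near the band as it descends, with Sdf2l1 far under it, and on the right the band is flat and Atf3 and Trib3 lie above it.

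With the trend taken out, no member passed in Aβ+DFMO against Aβ, beside 1.57% of all genes with a GC value, and none in Aβ against Control, beside 0.287%. The GC-corrected median of the members was 0.02, and that of both GC groups was 0.02 and 0.03 from low to high. Of the 36 ratios 22 kept their sign and 14 turned, and all 5 called genes kept theirs. Sdf2l1 and Hsp90b1 had the lowest adjusted p-values after the correction, 0.158 and 0.283. P4hb moved to 0.22, and Trib3 to 0.46 with an implied SE of 0.785. What produced the trend was not tested.

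**Figure D4:**
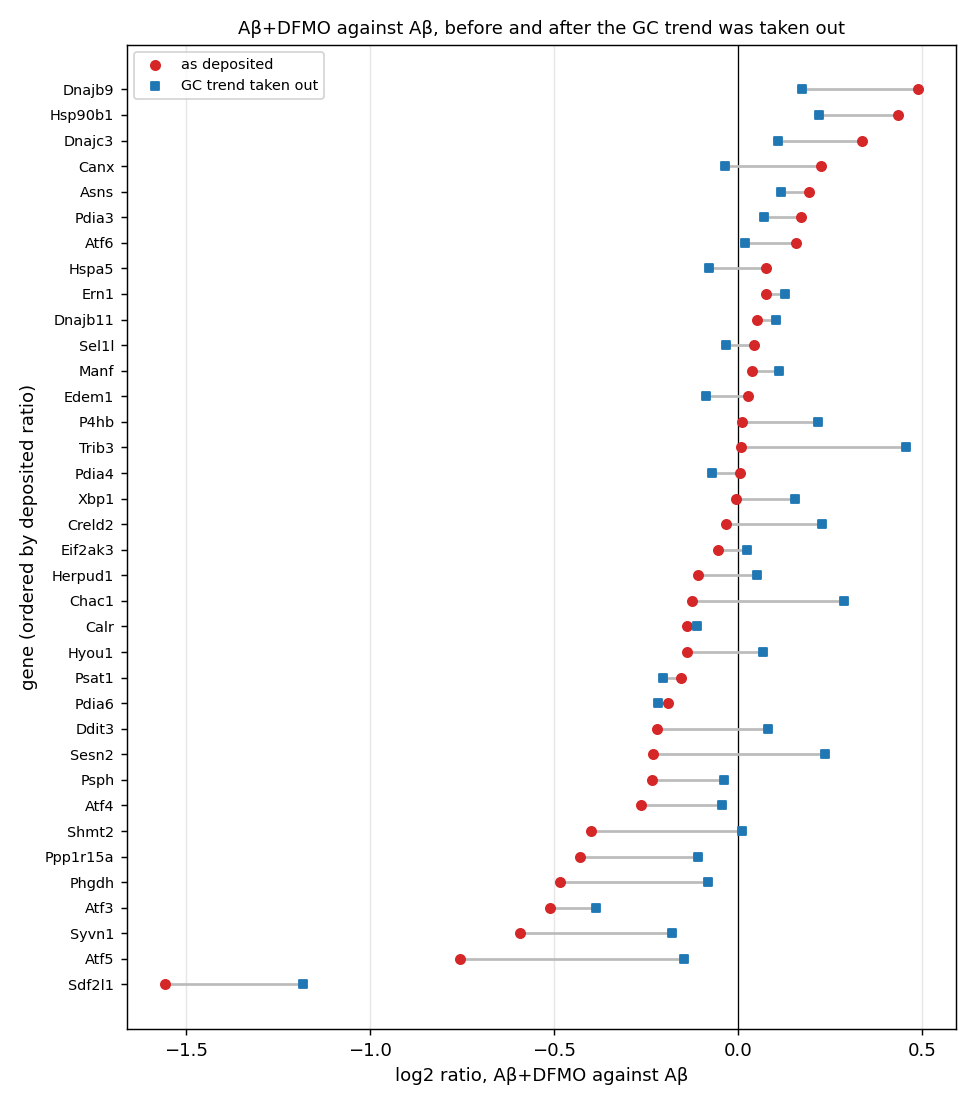
Log2 ratio of Aβ+DFMO against Aβ for each of the 36 genes, as deposited (circles) and with the trend on transcript GC content taken out (squares), ordered by the deposited ratio. The squares lie closer together than the circles, with Trib3 at 0.46, Atf3 at −0.39 and Sdf2l1 at −1.18 farthest from 0.

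The members with an ERSE in their window had a median log2 ratio of 0.02 in Aβ+DFMO against Aβ, beside −0.11 for the other 25 members with a window, and with the GC trend taken out the medians were −0.06 and 0.02. In Aβ against Control they were 0.03 and 0.02. Of the 8, Hsp90b1 and Dnajc3 rose and the other 6 were not called, Syvn1 having the lowest ratio. The 4 members with the ATF4 element had a median of −0.12 in Aβ+DFMO against Aβ, beside −0.03 for the other 29, and with the GC trend taken out the order turned, to 0.08 and −0.03.

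Of 116 other genes of the same pathways none was called in Aβ against Control in the authors' deposited DESeq2 table, and 2 had an unadjusted p under 0.05. The smallest p among them was that of Slc7a11, the cystine transporter induced by ATF4, with 594 in Aβ and 410 in Control (log2 ratio 0.54, implied SE 0.165, adjusted p = 0.260, in the authors' deposited table). In Aβ+DFMO, Slc7a11 had 410. Tram1 (−0.17) and Ppp1r15b (−0.15) had the smallest p of the lists of ER folding and translocation and of eIF2 signalling, with 0.0470 and 0.108 unadjusted in the authors' deposited table.

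In Aβ+DFMO against Aβ, 7 of the 116 rose, beside 4% of all genes, and 9 fell, beside 5.18%, in the authors' deposited table. Those shares of all genes are the background for each list here. Among the 11780 genes whose Aβ mean reached 200, a background nearer in level, 724 rose and 962 fell. Among 31 genes of ER folding and translocation, 5 rose and 1 fell, with a list median of 0.02 (−0.00 with the GC trend taken out). Those with the smallest p were Calu (calumenin, 0.38), Spcs3 (a signal peptidase subunit, 0.40), Erp44 (a thioredoxin-family retention factor, 0.40) and Fkbp14 (a prolyl isomerase, 0.44), with GC contents of 40.2% to 45.0%, and none of them passed after GC correction. Of 23 genes of ER-associated degradation 2 rose, Edem3 (0.50) and Erlec1 (0.39), and 2 fell, Edem2 (−0.67) and Aup1 (−0.68), in the authors' deposited table.

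Of 37 further ATF4 and CHOP targets none rose, beside 4% of all genes, and 5 fell, beside 5.18%. The list median was −0.19, which became −0.00 with the GC trend taken out. Cbs, which makes cystathionine, had 149 in Aβ+DFMO, 412 in Aβ and 402 in Control, a log2 ratio of −1.47 with an implied SE of 0.385 and an adjusted p of 0.00416 in the authors' deposited table. It was the single one of the 116 to pass with the GC trend taken out (−1.45, adjusted p = 0.0148), on an estimated 20.0 reads. Sqstm1 (an autophagy receptor, −0.45), Ddit4 (an inhibitor of mTORC1, −0.83) and Slc7a5 (a large neutral amino acid transporter, −0.47) fell in the authors' deposited table and did not pass after that correction. Of 25 genes of eIF2 and related signalling, Bax, which promotes cell death, alone was called, at −0.65 in the authors' deposited table.

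Aβ+DFMO and Control can be set side by side only as means, with no test. The median log2 ratio of the members was −0.06, beside 0.02 over all genes. From the deposited means, Sdf2l1 (−1.58) and Atf5 (−0.80) were the only members past 1.5-fold, both lower in Aβ+DFMO. Of all genes 27.7% were past that fold, 14.9% lower and 12.8% higher. With the GC trend taken out Atf5 was −0.20, inside that fold, while Sdf2l1 (−1.21) and Trib3 (0.90, on an estimated 7 reads) were past it. No member was past 1.5-fold in Aβ against Control, where 5.2% of all genes were. Both shares of all genes include 5337 genes under 10 estimated reads in Aβ+DFMO. Trib3 alone of the members stood under 10, so neither share is a like background.

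Cell type markers also differed between the groups, by the deposited calls. In Aβ+DFMO against Aβ 4% of all genes were higher and 5.18% lower, and in Aβ against Control 0.287% were called. The marker values were not corrected for GC, after which only 1.57% of all genes were called in Aβ+DFMO against Aβ. The 8 astrocyte markers summed to 120177 normalized units in Aβ+DFMO, 152671 in Aβ and 153129 in Control, each with a mean of at least 343, so the markers of the labelled cell type were present; 3 of the 8 fell in Aβ+DFMO against Aβ. The 7 oligodendrocyte lineage markers summed to 21083 in Aβ+DFMO, 38883 in Aβ and 39052 in Control. Of these 5 fell in Aβ+DFMO against Aβ, with a median log2 ratio of −0.93. The 7 microglia and macrophage markers summed to 27139 in Aβ+DFMO, 38677 in Aβ and 36433 in Control. In Aβ+DFMO against Aβ 2 were lower, with a median log2 ratio of −0.30. In Aβ against Control 1 was higher and 4 lower, with a median of −0.97, although the sum was higher in Aβ. The 5 fibroblast and mural markers summed to 90820 in Aβ+DFMO, 77758 in Aβ and 75706 in Control, where 1 rose in Aβ+DFMO against Aβ while their median log2 ratio was −0.13. The 4 measured neuron markers of 5 summed to 12818 in Aβ+DFMO, 12589 in Aβ and 12921 in Control, with 1 lower in Aβ+DFMO against Aβ and a median log2 ratio of −0.33. The 2 measured endothelial markers of 4 summed to 775 in Aβ+DFMO, 639 in Aβ and 641 in Control, with none called. No measured marker of any of the 6 lists was at 0. Their part in the members' ratios was not tested, and in bulk RNA fewer cells of a type and less RNA per cell cannot be told apart.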

How the data were processed

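RNA of 5 libraries in 3 groups was analysed from the authors' deposited tables. The submitters' processing notes name STAR 2.7.3a, Partek, DESeq2 and FastQC and the builds mm10 and GRCm39, with no role; nothing used here states the counting program, annotation, strand or filter. Per the file headers, the authors deposited for each gene a least-squares mean per group (taken here as a normalized signal), their ratio, its log2, a p-value and an adjusted p-value, for Aβ against Control and Aβ+DFMO against Aβ. The log2 ratio was checked to be that of the means, and the adjusted p to be Benjamini-Hochberg over all 18783 genes. The read total of a library and the percent of reads in exons are also per the file headers; they were used for the Aβ+DFMO library only, since the names of the other rows do not tell which library of a group they are.

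With group means only, nothing was re-tested: calls are the authors' (adjusted p under 0.05). Implied SEs assume a Wald test. In Aβ against Control 76.6% of p-values exceeded 0.5, so these SEs may be too large. Estimated reads are the Aβ+DFMO signal divided by 7.45; 81.3% of 7235 genes under 27 reads came out whole within 0.05, too few to recover counts, and intervals (exact Poisson, 95%) cover counting error only. The GC trend was a lowess curve (fraction 0.2, statsmodels 0.14.6) over the 11660 genes with a GC value whose Aβ mean reached 200. GC content came from a single GENCODE M21 transcript per gene, called the principal transcript here. Protein-coding transcripts came first, then APPRIS principal ones, then the longest, so some genes may rest on length alone. Such a transcript was found for 98.3% of genes and all 36 members. The trend was subtracted, p recomputed from the implied SE and adjusted over 18459 genes. The procedure was tested on simulated ratios with a known GC trend and normal errors of the size of the implied SEs. That simulation thus could not test whether the implied SEs fit these data. Near-identical copies were sought with minimap2 2.31 (at least 95% over 300 bases). The members and lists were chosen with earlier results of these data known. All 36 members may be named; of each further list, up to 4 called genes with the smallest p per comparison, or the 1 with the smallest p. A gene that this rule names is not reported here. The deposited pathway table and the quartiles per library were not used.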

Additional observations from a re-analysis of the deposited data

How the results depend on the processing

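No member was called in Aβ against Control under any of the 5 alternatives run: an adjusted p under 0.1 or 0.01, a minimum of 1 ppm of the summed signal, centring on the median of all genes, and the GC trend taken out. In Aβ+DFMO against Aβ the count of 5 became 8 at an adjusted p under 0.1, adding Canx, Phgdh and Syvn1, and 0 with the GC trend taken out; it was 4, 6 and 5 under the stricter threshold, the filter and the centring. With the GC trend taken out the median of the members turned sign in both comparisons of Aβ+DFMO, to 0.022 against Aβ (−0.044 as deposited) and to 0.032 against Control (−0.061); under the pseudocount, filter and centring it kept its sign. Ratios of Aβ+DFMO against Aβ that changed sign with the GC trend taken out, none of them called either way, became 0.024 for Eif2ak3, 0.16 for Xbp1, 0.080 for Ddit3, −0.079 for Hspa5, −0.037 for Canx, 0.068 for Hyou1, 0.23 for Creld2, −0.071 for Pdia4, 0.051 for Herpud1, −0.032 for Sel1l, −0.088 for Edem1, 0.29 for Chac1, 0.24 for Sesn2 and 0.010 for Shmt2. Pdia4 became −0.0016 when centred, and Atf4 in Aβ against Control became −0.0013 when centred and −0.012 with the GC trend taken out. The cause of these shifts was not tested. No paired analysis was possible because the deposited values per gene are group means, and for the same reason no library could be left out. Depth limits Sdf2l1, Chac1 and Trib3, the 3 members under 20 estimated reads in Aβ+DFMO.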
